A study of Mus musculus with 6 samples.

Results

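Intermediate filament genes were examined in neurospheres, free-floating balls of dividing cells, grown from neural crest tissue of C57BL/6J mice. The 10 genes were chosen as a named list: Nes, Vim, Gfap, Des, Prph, Ina, Nefl, Nefm, Krt8 and Krt18. They are carried by 25 of the 45101 probe sets of the Affymetrix mouse array, and by 10 of the 18193 genes that the annotation names. Each probe set here stands for 1 gene only. rNCSC, with 3 arrays, came from cells of the dorsal root ganglia, clusters of sensory neurons and glia next to the cord, of embryos at day 12.5. The labels describe these neural crest stem cells as reprogrammed in culture and able to form CNS cell types. The palate neural crest-derived stem cells, pNCSC, also with 3 arrays, came from adult palate, for which 3 to 5 mice of 6 to 8 weeks were dissected. The medium held basic FGF (20 or 40 ng/ml, with no word on which culture got which), N2, B27, heparin at 0.5 U/ml and EGF at 20 ng/ml, and RNA was taken at passage 3. Tissue, donor age and culture cannot be told apart in this design, and no uncultured tissue is among the samples. The labels do not state whether replicate arrays stand for distinct cultures or donors, so p-values measure the spread between these samples, which may be technical. In whole cultures, fewer cells of a type and less RNA per cell cannot be told apart.

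Intermediate filaments are rope-like polymers that give cells mechanical strength, and each cell type builds them from its own subset of subunits. All subunits share a central coiled-coil rod. Vimentin (Vim), desmin (Des), glial fibrillary acidic protein (Gfap) and peripherin (Prph) can form filaments on their own and mark mesenchyme, muscle, astrocytes and peripheral neurons, respectively. The neurofilament proteins (Nefl, Nefm) and alpha-internexin (Ina) fill the axons of neurons, and nestin (Nes) copolymerises with vimentin in neural progenitors. The simple epithelial keratins Krt8 and Krt18 commonly assemble with each other.

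Values are on a log2 scale, so that 1 unit is a doubling. After the GCRMA background correction named in the submitters' processing notes, weak probe sets collapse towards a low floor. Probe sets under 4 were therefore treated as dim, and only those at 4 or more on at least 3 arrays were tested. Between 50.2% and 50.6% of all probe sets reached 4 on an array, and the array medians were 4.01 to 4.04. Arrays of a group correlated at r = 0.988 to 0.996, and arrays of different groups at 0.833 to 0.844. Markers gave this background: all 9 CNS progenitor genes examined, among them Sox1, Pax6 and Olig2, reached 4 on every rNCSC array. In pNCSC, 6 of the 9 were under 4 on all arrays, while Sox2 read 9.97, 9.53 and 10.24. Of 7 Schwann cell and crest markers, 4 (Sox10, Ngfr, Erbb3 and Foxd3) were under 4 on all rNCSC arrays. Among the rest, Cdh19 read 8.47, 6.33 and 7.34 in rNCSC, S100b read 6.04, 7.82 and 5.82, and Mbp reached 4 on 2 rNCSC arrays. In pNCSC, 6 of the 7 reached 4 on every array, and Mbp on none. Of the sensory neuron factors of the ganglion, Isl1 was under 4 on all rNCSC arrays, and Pou4f1 stood at 4.46, 4.02 and 3.69. In pNCSC, all 10 fibroblast and mesenchyme markers reached 4 on every array. In rNCSC, 7 of the 10 were under 4 on all arrays. Pdgfra read 8.94, 5.97 and 5.13 there, and Prrx1 7.04, 5.04 and 7.58.

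The upstream sequences of 8 of the 10 genes were in the RefSeq promoter table (mouse build GRCm38.p6). Nefl and Nefm were not among them. Shown are the 250 bases before the start of Nes and Ina, which were both higher in rNCSC, of Krt18, which was higher in pNCSC, and of Vim, which stood near the top of the scale in both. They lie at chr3:87970843-87971092 (Nes, plus strand), chr19:47014431-47014680 (Ina, plus strand), chr15:102027966-102028215 (Krt18, plus strand) and chr2:13574061-13574310 (Vim, plus strand). Capitals mark matches on either strand to the TATA box letters TATAAA, the GC box letters GGGCGG and the CCAAT box letters, each written as read on the plus strand.
Nes: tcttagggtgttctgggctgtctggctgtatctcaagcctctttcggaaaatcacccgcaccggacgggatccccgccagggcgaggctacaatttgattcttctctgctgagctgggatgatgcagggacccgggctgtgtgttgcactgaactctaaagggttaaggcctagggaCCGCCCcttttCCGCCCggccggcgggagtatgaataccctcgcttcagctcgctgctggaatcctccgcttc
Ina: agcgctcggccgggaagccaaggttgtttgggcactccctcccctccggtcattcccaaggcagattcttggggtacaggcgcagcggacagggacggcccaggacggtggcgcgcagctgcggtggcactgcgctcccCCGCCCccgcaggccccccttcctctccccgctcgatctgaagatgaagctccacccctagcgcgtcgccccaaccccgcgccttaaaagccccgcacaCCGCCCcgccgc
Krt18: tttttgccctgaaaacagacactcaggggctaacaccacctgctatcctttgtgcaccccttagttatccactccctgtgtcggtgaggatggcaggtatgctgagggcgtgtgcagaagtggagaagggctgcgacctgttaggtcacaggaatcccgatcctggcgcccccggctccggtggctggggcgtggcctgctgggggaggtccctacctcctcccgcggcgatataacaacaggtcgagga
Vim: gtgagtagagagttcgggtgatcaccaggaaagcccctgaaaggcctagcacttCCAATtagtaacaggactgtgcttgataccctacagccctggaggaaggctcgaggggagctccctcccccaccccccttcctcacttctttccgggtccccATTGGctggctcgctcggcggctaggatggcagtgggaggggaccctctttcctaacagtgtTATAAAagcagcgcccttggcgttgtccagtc
GGGCGG occurred in 4 of the 8 sequences (Nes, Des, Prph and Ina), against 32.7% of all 32851 promoters in the table over the same length. Nes held it at 73 to 68 and 62 to 57 bases before the start, and Ina at 111 to 106 and 12 to 7. TATAAA occurred in Vim, at 32 to 27 bases before the start, and in Prph, against 12.4% of all promoters. CCAAT occurred in Vim only among these 8, on both strands, against 33.8% of all promoters. No match overlapped another. A match describes letters in this window and is no evidence of binding.

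**Figure D1:**
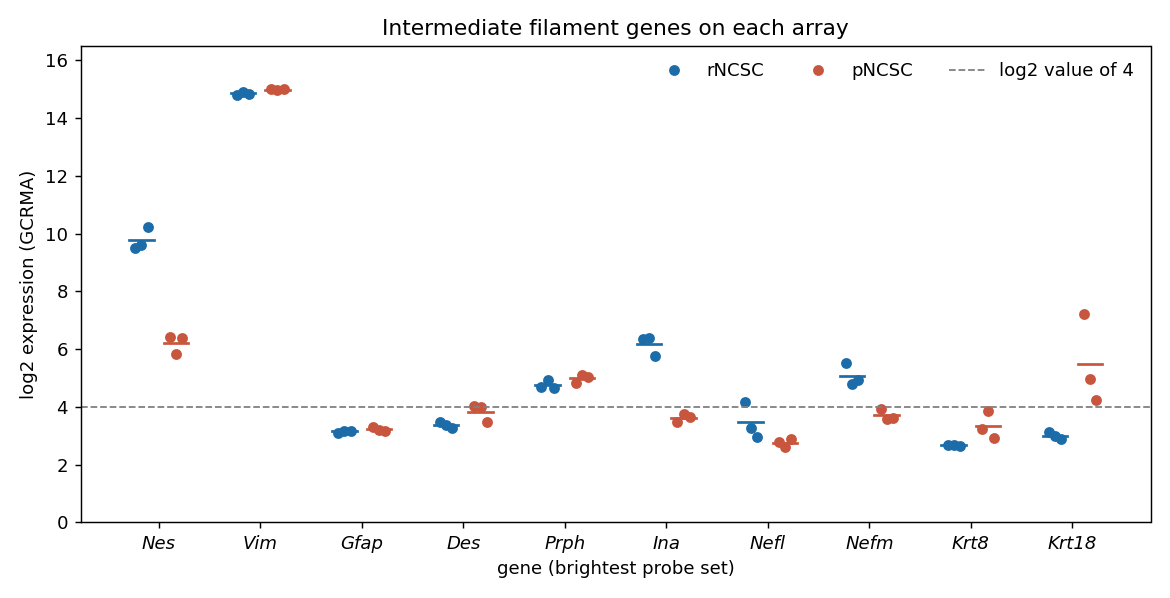
Log2 expression (y axis) of the 10 genes by their brightest probe set (x axis), with 1 point per array, a bar at the mean of each group and a dashed line at 4. Nes, Ina and Nefm sat higher on the rNCSC arrays, Krt18 on the pNCSC arrays, Vim stood near 15 in both, and Gfap, Krt8 and nearly all values of Des and Nefl lay under 4.

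By the brightest probe set of each gene, 6 of the 10 genes were bright enough to test. Nes, Ina and Nefm were higher in rNCSC, Krt18 was higher in pNCSC, and Vim and Prph did not pass the test. Gfap, Des, Nefl and Krt8 were too dim to test. These counts are a description, because Ina, Nefm and Krt18 passed the filter only through the group in which they were high. Of all 11721 genes tested, 73.3% passed limma's test at a Benjamini-Hochberg adjusted p under 0.05. Of all tested, 40.2% were higher in rNCSC and 33.1% in pNCSC, and in 78.2% the groups did not overlap. The 4 calls among 6 genes are close to that background. With 3 arrays per group, the smallest p that exact permutation allows is 0.1.

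Nestin showed the largest measured difference among the 6 tested genes, although the folds of Ina, Nefm and Krt18 are lower bounds and cannot be ranked against it. Its brightest probe set read 9.51, 9.60 and 10.21 in rNCSC and 6.43, 5.82 and 6.37 in pNCSC. The groups were far apart, and Nes was clearly above the floor in the palate cultures too. The log2 difference was 3.57 (SE 0.25), or 11.8-fold (limma adjusted p = 2.3e-05).

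The remaining Nes probe sets gave the same order of the groups. The second read 9.28, 9.31 and 10.07 in rNCSC and 5.54, 5.31 and 5.45 in pNCSC, a 17.3-fold difference. The third read 6.76, 6.60 and 7.17 against 4.03, 3.71 and 3.95, which gives at least 7.14-fold with the arrays under 4 set to 4. On all 3 probe sets the highest value was that of rNCSC replicate 3 and the lowest that of pNCSC replicate 2.

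The genes whose values over the 6 arrays most resembled those of Nes, by Euclidean distance after each gene's mean was removed, were Spats2l, Il18 and Kbtbd6 (distances 0.41, 0.46 and 0.47). Il18, an interleukin gene, read 9.68, 9.66 and 10.22 in rNCSC and 6.60, 6.41 and 6.59 in pNCSC. In all, 197 genes lay within a distance of 1, so the likeness rests mainly on the shared step between the groups.

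Vimentin, the partner of nestin and the common filament of mesenchyme, was near the top of the scale in both cultures. Its brightest probe set read 14.81, 14.92 and 14.84 in rNCSC and 15.00, 14.97 and 15.00 in pNCSC, on arrays whose highest value for any probe set was 15.47 to 15.58. The pNCSC values were all slightly higher. The difference of -0.13 (SE 0.10, 95% interval -0.37 to 0.11) did not pass the test (adjusted p = 0.28).

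The other Vim probe sets pointed the same way without passing. One differed by -0.16 (95% interval -0.41 to 0.08, adjusted p = 0.20) and the other, which read 13.71, 13.81 and 13.90 against 13.96, 14.21 and 13.98, by -0.24 (95% interval -0.53 to 0.05, adjusted p = 0.12). Under a fit that lets the variance follow the mean level, the brightest probe set passed (adjusted p = 0.032) at the same size.

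Glial fibrillary acidic protein, the filament of mature astrocytes and of some radial glia and Schwann cells, was dim on every array. All 18 values of its 3 probe sets lay between 1.90 and 3.31. The brightest read 3.10, 3.16 and 3.17 in rNCSC and 3.31, 3.20 and 3.17 in pNCSC, and no Gfap signal above the floor was detectable in either culture.

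Of 10 other astrocyte and radial glia markers, 9 reached 4 on every rNCSC array and 7 on every pNCSC array. Gjb6 was under 4 on all 6 arrays. The summed level of the 10 was 14.38 to 14.87 in rNCSC. In pNCSC it was 14.16 to 14.42 on the log2 scale, where Gja1 made up most of it. Of the 9 tested, 6 were higher in rNCSC, against 40.2% of all genes tested. Among them were the glutamate transporter genes Slc1a3 (13.46 ± 0.25 against 7.40 ± 0.27, SD, n = 3) and Slc1a2, and the water channel gene Aqp4 (7.15 ± 0.42 against 2.41 ± 0.05). S100b and the gap junction gene Gja1 were higher in pNCSC.

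Desmin, the filament of muscle that is also used as a pericyte marker, stayed at or under the floor. Its brighter probe set read 3.46, 3.38 and 3.27 in rNCSC and 4.02, 3.98 and 3.49 in pNCSC, so that 1 of 12 Des values reached 4. The pNCSC values of this probe set were all higher, but it was too dim to test, and its other probe set overlapped between groups (2.75 to 2.90 against 2.70 to 2.76).

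Pericyte genes were bright in the same pNCSC arrays. Rgs5, a regulator of G protein signalling typical of pericytes, was at 14.33 ± 0.19 there, and Pdgfrb, Abcc9 and Kcnj8 were also higher in pNCSC. Cspg4, another pericyte marker, overlapped between the groups (7.72 against 7.53, adjusted p = 0.82). Of the contractile smooth muscle genes, Acta2 was higher in pNCSC (5.54 against 7.17, adjusted p = 0.00033), Cnn1 and Myh11 were under 4 on all 6 arrays, and Tagln reached 4 on 1 pNCSC array. Among skeletal muscle markers, the master regulators Myod1, Myog, Myf5 and Pax7 were under 4 on all arrays, while Myl1 read 5.46, 8.02 and 5.57 in pNCSC.

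Peripherin, the filament of peripheral and sensory neurons, gave no difference past the test. Its brightest probe set read 4.69, 4.91 and 4.65 in rNCSC and 4.82, 5.11 and 5.03 in pNCSC. The groups overlapped, with a difference of -0.24 (SE 0.13, 95% interval -0.56 to 0.08, adjusted p = 0.15).

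That probe set has the ending _x_at, which Affymetrix gives to probe sets that may bind other transcripts. The other 3 Prph probe sets lay between 2.31 and 3.09 on all arrays, so a level above the floor rests on that probe set alone, and Prph was not tested when such probe sets were left out. With array weights it passed the test as higher in pNCSC (adjusted p = 0.026).

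Alpha-internexin, an early filament of CNS neurons and their precursors, was higher in rNCSC. Its brightest probe set read 6.36, 6.39 and 5.76 in rNCSC and 3.46, 3.76 and 3.63 in pNCSC. All pNCSC values were under 4, so Ina was at least 4.50-fold higher in rNCSC (log2 difference of the measured values 2.55, SE 0.20, adjusted p = 3.8e-05).

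The other Ina probe sets were also higher in rNCSC. One read 4.94, 4.88 and 4.28 against 2.51, 2.73 and 2.55 (adjusted p = 7.2e-05), and the other read 4.51, 4.36 and 4.24 against 3.62, 3.61 and 3.50 (adjusted p = 0.00076), both in the fit over all probe sets. The first was thus higher by at least 1.62-fold and the second by at least 1.29-fold. On every Ina probe set rNCSC replicate 3 was the lowest rNCSC array, whereas for Nes it was the highest.

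The neurofilament genes Nefm and Nefl, which have no protein-coding gene between them in the RefSeq table, were weak. Nefm, the medium subunit, read 5.52, 4.78 and 4.93 in rNCSC and 3.94, 3.59 and 3.62 in pNCSC. It was at least 2.11-fold higher in rNCSC (log2 difference of the measured values 1.36, SE 0.22, adjusted p = 0.0013).

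Nefl, the light subunit that the other neurofilament proteins need for assembly, reached 4 on 1 array. Its brighter probe set read 4.17, 3.26 and 2.96 in rNCSC and 2.79, 2.60 and 2.90 in pNCSC, and the other stayed between 1.94 and 3.10. The rNCSC values were higher on both probe sets, but neither was bright enough to test. The heavy subunit gene Nefh was under 4 on all 6 arrays.

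rNCSC replicate 1 was the highest array for Nefm and for both Nefl probe sets. It was also the highest rNCSC array for 12 of 13 neuron markers, against 29.8% of all tested genes, a count made after the values had been seen. Of these 13 markers, 5 were too dim to test, and the 29.8% covers tested genes only. The migrating neuron gene Dcx read 5.83, 5.44 and 3.85, and the neuronal tubulin gene Tubb3 7.34, 6.55 and 6.03. The summed level of the 13 neuron markers was 13.81 to 14.27 in rNCSC and 9.93 to 10.88 in pNCSC on the log2 scale. Map2 made up most of the sum in rNCSC, and Snap25 most of it in pNCSC. Without Map2 alone, the sum read 12.51, 11.03 and 11.59 in rNCSC and 10.87, 9.90 and 10.58 in pNCSC. Without Snap25 as well, the sum of the other 11 markers was highest on rNCSC replicate 1, at 12.48. It was at most 8.80 in pNCSC, below every rNCSC array. Both choices were made after seeing the data, and the second leaves out the only tested marker that was higher in pNCSC. Of the 8 tested, 7 were higher in rNCSC, against 40.2% of all genes tested, and Snap25 was higher in pNCSC. Elavl3, Elavl4 and Rbfox3 passed the filter only through rNCSC, so this count is a description. The part of neuron-like cells in the Nefm and Ina differences was not tested.

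**Figure D2:**
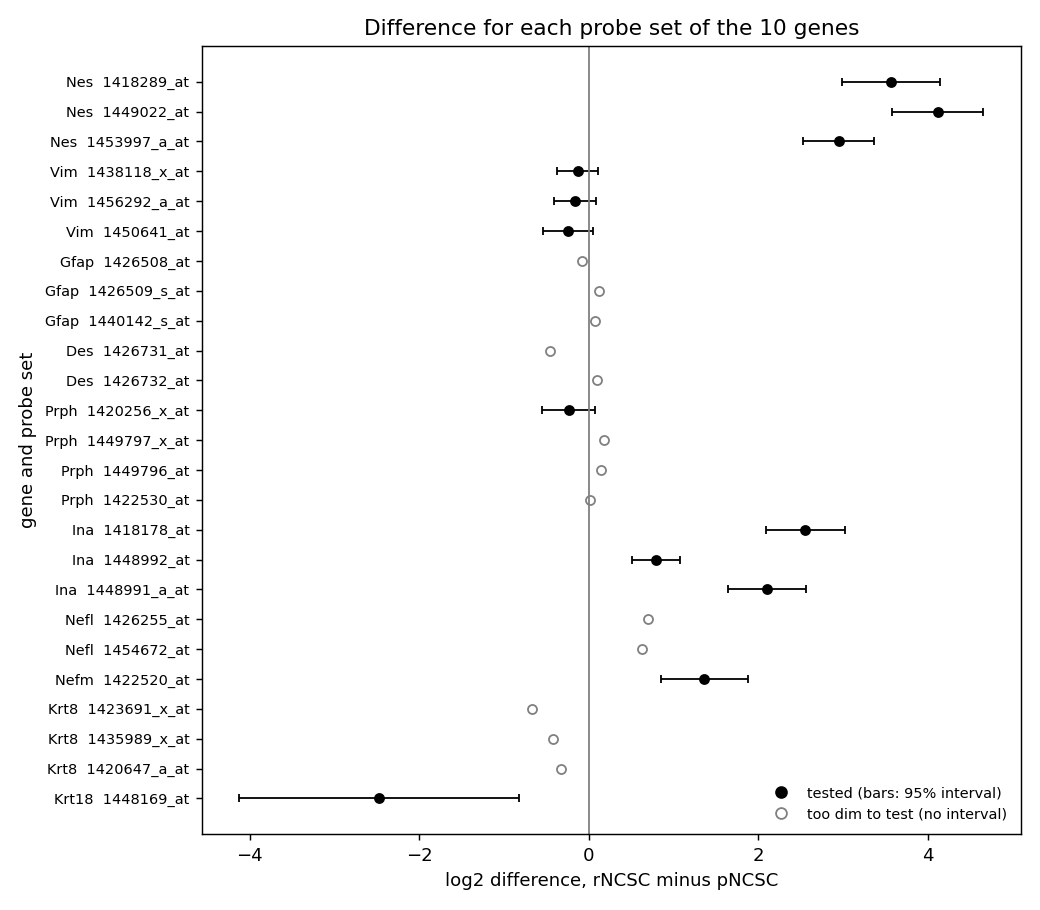
Log2 difference, rNCSC minus pNCSC (x axis), for each of the 25 probe sets of the 10 genes (y axis). Filled points are tested probe sets with the 95% interval of the fit over all probe sets, and open points are probe sets too dim to test. All 3 probe sets of Nes and of Ina lie to the right of 0, those of Vim lie just left of it, and Krt18 has the widest interval.

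The fit of every probe set on its own tested 12 of the 25. There, 7 were higher in rNCSC (3 of Nes, 3 of Ina and 1 of Nefm), 1 was higher in pNCSC (Krt18), and 4 did not pass (3 of Vim and 1 of Prph). Over all 24834 probe sets tested, 72.0% passed, which divides into 41.0% higher in rNCSC and 31.0% higher in pNCSC. The share called among the 12 is close to that background. The Ina, Nefm and Krt18 probe sets passed the filter only through the group in which they were high, so these counts are a description.

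Keratin 18 was the only one of the 10 genes called higher in pNCSC. It read 3.12, 2.99 and 2.89 in rNCSC and 7.22, 4.95 and 4.25 in pNCSC. All rNCSC values were under 4, and the pNCSC arrays differed widely, with replicate 1 far above replicates 2 and 3. Krt18 was at least 2.78-fold higher in pNCSC (log2 difference of the measured values -2.47, SE 0.71, adjusted p = 0.017). Leaving out rNCSC replicate 3 took the adjusted p to 0.053, past the threshold. Without pNCSC replicate 1 the bound fell to at least 1.52-fold (measured difference -1.60), and without pNCSC replicate 3 it was at least 4.24-fold (measured difference -3.09), with the call kept in both fits.

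Keratin 8, the common partner of keratin 18, was dim. All 18 values of its 3 probe sets lay between 2.55 and 3.87. The brightest read 2.67, 2.68 and 2.64 in rNCSC and 3.23, 3.87 and 2.90 in pNCSC. The pNCSC values were the higher ones, and here replicate 2 and not replicate 1 was the highest. Krt8 and Krt18 have no protein-coding gene between them in the RefSeq table.

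The summed level of 10 epithelial markers, keratins 5 and 14 included, was 8.37, 10.05 and 9.98 on pNCSC replicates 1, 2 and 3 on the log2 scale, and 6.75 to 6.84 in rNCSC. On replicates 2 and 3 that sum was mostly Perp, a junction gene of stratified epithelium, which over the pNCSC arrays read 6.42, 9.80 and 9.69. Without Perp, in a sum added after seeing the data, the other 9 markers gave 7.93, 7.41 and 7.52 in pNCSC and 6.60 to 6.64 in rNCSC. The array with the most Krt18 thus had the lowest sum with Perp and the highest without it. Among the pNCSC arrays, 5 of the 10 markers were highest on replicate 1, against 38.0% of all tested genes. One of them was Ivl, a cornified envelope gene, at 6.68, 5.16 and 5.73. Of the 10 markers, 5 were too dim to test, and the 38.0% covers tested genes only. Of the defining genes, Cdh1, Cldn4, Esrp1 and Krt14 were under 4 on all 6 arrays, and Epcam was higher in pNCSC (5.50 against 4.25). The part of epithelial cells in the Krt18 difference was not tested.

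**Figure D3:**
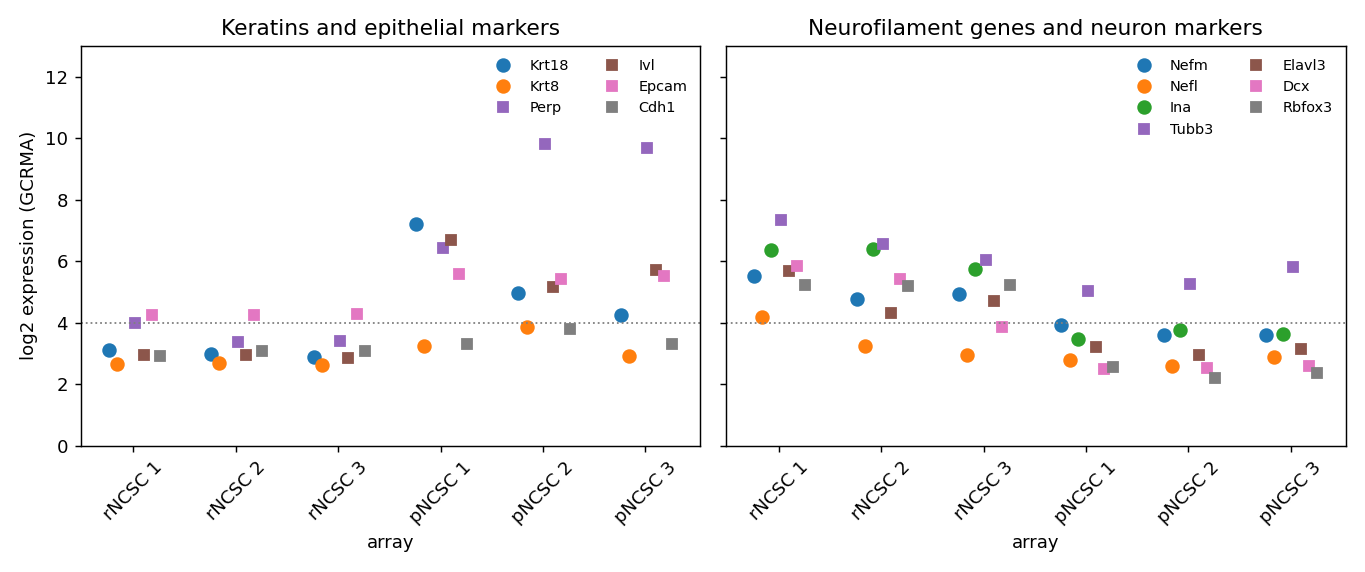
Log2 expression (y axis) on each array (x axis), with circles for the filament genes, squares for cell type markers and a dotted line at 4. On the left, Krt18 is highest on pNCSC replicate 1 at 7.22 while Perp is highest on pNCSC replicate 2 at 9.80. On the right, Nefm and Nefl are highest on rNCSC replicate 1, as are Tubb3, Elavl3 and Dcx. Ina is highest on rNCSC replicate 2 and Rbfox3 on rNCSC replicate 3.

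Among 23 other intermediate filament genes, 9 were bright enough to test, 3 were higher in rNCSC and 4 in pNCSC, near the background of 73.3% called. The median difference was -0.12, against 0.12 for all genes tested. The nuclear lamins stood furthest apart. Lmna, which encodes the A-type lamins of differentiated cells, stood at 4.18 ± 0.24 in rNCSC and 11.02 ± 0.11 in pNCSC, 114-fold higher in pNCSC (adjusted p = 1.7e-07). Lmnb1, a B-type lamin gene, was the reverse at 10.72 ± 0.18 against 4.74 ± 0.17, 63.1-fold higher in rNCSC (adjusted p = 2.6e-07). All 4 bright Lmna probe sets and both bright Lmnb1 probe sets were called in these directions.

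The remaining calls on that list were smaller. Lmnb2 was at least 2.52-fold higher in rNCSC. Synm encodes synemin, which joins vimentin and desmin filaments, and was at least 1.53-fold higher in pNCSC (adjusted p = 0.0020). Krt10 was higher in rNCSC (adjusted p = 0.037), and Iffo2 and Bfsp1 were higher in pNCSC. Lmnb2, Synm and Bfsp1 passed the filter only through the group in which they were high, so their calls and the list counts are a description. The keratin genes Krt1, Krt4, Krt6a, Krt7, Krt13, Krt14, Krt15, Krt17, Krt19, Krt20 and Krt80 were under 4 on all 6 arrays.

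Proteins that tie intermediate filaments to junctions and to other filaments had members on both sides. Of 16 genes, 11 were tested, with 3 higher in rNCSC, 4 higher in pNCSC and a median difference of -0.01. Over all genes tested, 73.3% were called and the median difference was 0.12. Plec encodes plectin, the main cross-linker of vimentin filaments. No rNCSC array reached 4, and pNCSC read 10.87, 11.34 and 11.27, at least 143-fold higher there (adjusted p = 2.4e-07), with all 3 bright probe sets in that direction. The other Plec probe sets gave smaller bounds, at least 8.78-fold and at least 4.85-fold. Ppl, which encodes periplakin, was at least 9.71-fold higher in pNCSC (adjusted p = 1.5e-06). Dst and Dsp, for dystonin and desmoplakin, were the other members higher in pNCSC, and Pkp4, Dtna and Dtnb were higher in rNCSC. For Dtnb, 1 of 2 bright probe sets was called. Plec, Ppl and Dsp passed the filter only through pNCSC, so their calls and the list counts are a description.

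Chaperones, kinases, motors and proteases that act on intermediate filaments were called in 18 of 22 tested cases, 10 higher in rNCSC and 8 in pNCSC, with a median difference of 0.24. That share is near the background, in which 73.3% were called (40.2% higher in rNCSC, 33.1% in pNCSC). The small heat shock protein genes were higher in pNCSC. Hspb1 was at least 122-fold higher there, Cryab 13.6-fold (6.86 ± 0.05 against 10.62 ± 0.42) and Hspb6 13.4-fold. Their co-chaperone gene Bag3 read 6.07, 3.13 and 4.58 in rNCSC and 9.88, 9.78 and 9.67 in pNCSC, at least 29.7-fold higher in pNCSC (adjusted p = 0.00044), with wide spread among the rNCSC arrays. The kinase gene Prkca was 9.15-fold higher in pNCSC. On this list Hspb1 and Capn1 passed the filter only through pNCSC, and Plk1 only through rNCSC. Their calls and the list counts are therefore a description.

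The mitotic kinase genes Cdk1, Aurkb and Plk1 were higher in rNCSC. Cdk1 was 30.4-fold higher (12.29 ± 0.05 against 7.37 ± 0.59), Aurkb 50.7-fold and Plk1 at least 36.1-fold. By their brightest probe sets, Rock1 and Pak2, which encode vimentin kinases, did not pass the test (adjusted p = 0.47 and 0.076). In the fit over all probe sets, 2 of 3 bright Pak2 probe sets were higher in rNCSC. There, 1 of 5 bright Rock1 probe sets was higher in pNCSC. Cdk5r1, the activator of Cdk5, a kinase of neurofilaments and nestin, was 8.09-fold higher in rNCSC. Of the kinesin genes that move neurofilaments along axons, Kif5b and Kif5c were higher in rNCSC and Kif5a was under 4 on all arrays. For Kif5b, 4 of 6 bright probe sets were called in that direction. Several Dnajb6 probe sets were called in opposite directions, so its call as higher in rNCSC is uncertain.

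**Figure D4:**
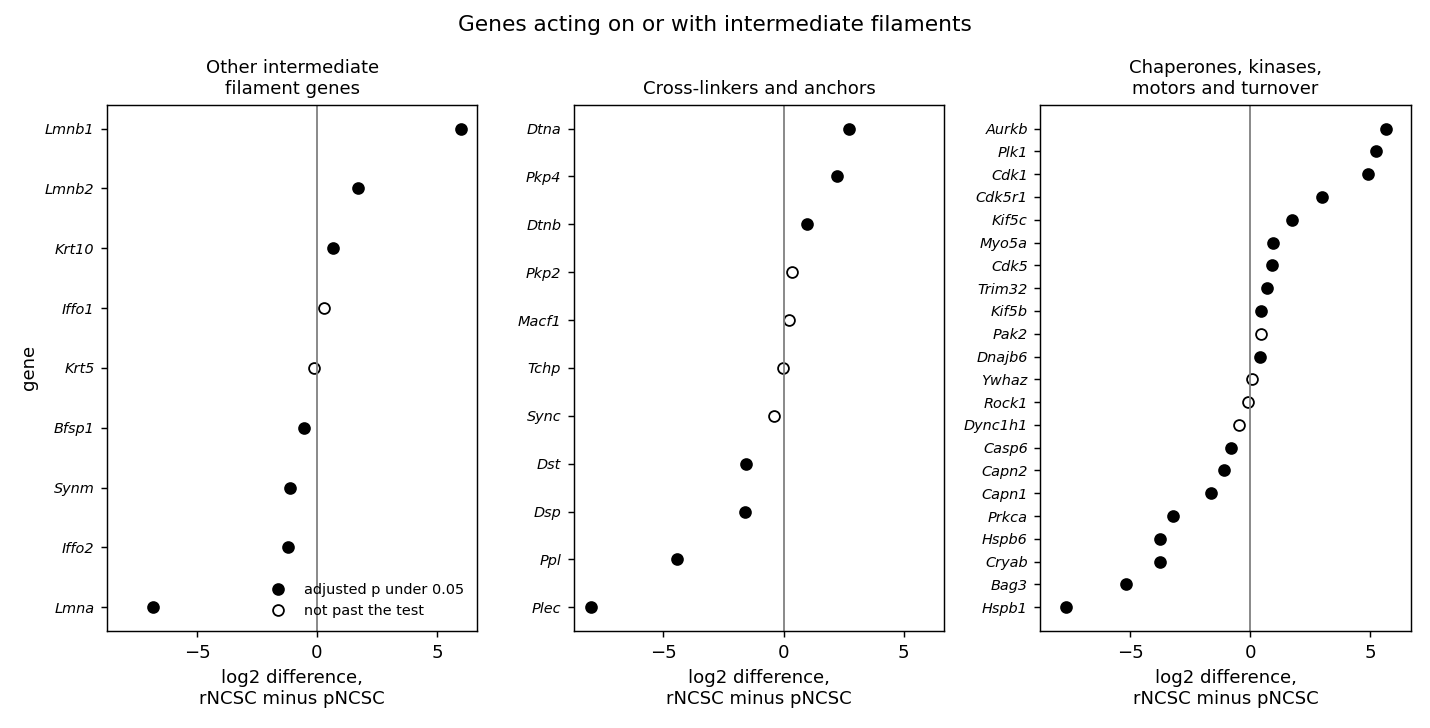
Log2 difference, rNCSC minus pNCSC (x axis), for the tested genes of 3 lists (y axis), with filled points at an adjusted p under 0.05 and open points for genes not past the test. Lmnb1, Aurkb, Plk1 and Cdk1 lie furthest to the right, and Plec, Hspb1 and Lmna furthest to the left.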

How the data were processed

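Total RNA (500 ng) of passage 3 neurospheres was labelled by the authors for Affymetrix mouse arrays, as the labels' protocols describe. The deposited values are log2 values per probe set, and the submitters' processing notes name GCRMA, with no version or settings. The log2 scale was taken from the value range (1.22 to 15.58). Such normalization gives all arrays about the same distribution, so a shift shared by most genes would not show.

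Groups came from the sample titles. Probe sets were named by the platform annotation (34958 with 1 gene, 932 with several, 9211 unnamed), and 64 control probe sets were left out. Symbols were checked against the RefSeq gene table (GRCm38.p6), which changed 0 of them. The brightest probe set over the 6 arrays stood for a gene. Of 18193 genes, 6472 were dim and 11721 were tested with lmFit and eBayes (limma 3.58.1, R 4.3.3), two-sided, without covariates, with Benjamini-Hochberg adjustment over all genes at 0.05. The same fit was run on every probe set. Genes under 4 on all arrays of a group passed the filter only through the other group, so their calls are a description. Differences are rNCSC minus pNCSC. Where an array of the lower group was under 4, it was raised to 4 and the fold printed as at least that size. Only the limma fit over genes was tried on simulated data, in which a far smaller share of genes differed than was called here. The floor, the probe set choice and the lists were not tried in this way.

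The genes, lists and alternatives were chosen with earlier results of these data known. Named were the 10 genes, list members with a log2 difference of 3 or more that passed, up to 3 genes per marker list, and 3 genes most like Nes. The rule also asked for genes most like Gfap and Des, which were too dim. Other genes were named after their values were seen. Marker lists not described above gave 3 of 4 tested leukocyte genes and 2 of 3 tested skeletal muscle genes higher in pNCSC. The share over all genes tested was 33.1%. Of 6 endothelial genes, 0 were bright enough to test. Some genes of these lists are not reported here. Replicate numbers were not used as pairs, since same-numbered arrays did not deviate together. Alternatives covered the filter, the probe set choice, array scaling, the variance prior, array weights, a replicate block, treat, the floor and leaving out each array.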

Additional observations from a re-analysis of the deposited data

How the results depend on the processing

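Nes, Ina and Nefm kept their direction in all alternatives in which they were tested, and Nes and Ina also kept their calls. The log2 difference of Nes ranged from 3.35 to 3.70 and that of Ina from 1.82 to 2.76. Against a 2-fold difference (limma's treat), the calls of Nefm (adjusted p = 0.19) and Krt18 (adjusted p = 0.11) were lost, so that 0 of the 10 genes were higher in pNCSC, and over all genes 1885 in place of 4717 were higher in rNCSC and 2007 in place of 3879 in pNCSC. With the filter at 6, 1 of the 10 genes (Nes) was higher in rNCSC and 0 in pNCSC, since Ina, Nefm, Prph and Krt18 were no longer tested. The number higher in pNCSC was 2 with the filter at 3, where Des was added (adjusted p = 0.047), 2 with a variance trend (Vim) and 2 with array weights (Prph). Leaving out each array gave 3 to 3 genes higher in rNCSC and 0 to 1 higher in pNCSC. With array weights the Krt18 difference was -1.47. With the floor at 3, the Krt18 bound was 5.41-fold in place of 2.78-fold and the Ina bound 5.87-fold in place of 4.50-fold. Without a filter, 7 in place of 4 other intermediate filament genes were higher in pNCSC. Quantile normalization and median centring moved the median of all genes by -0.016 each and changed no count of the related lists.

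The replicate number as a block gave 4445 genes higher in rNCSC and 3721 in pNCSC and changed no call among the 10 genes. Deviations of same-numbered arrays correlated at 0.047, -0.032 and -0.038, and 2 of 6 arrays correlated best with their own number, so the numbers give no pairing. Precision is limited by 3 arrays per group and, for Gfap, Des, Nefl and Krt8, by signal near the floor.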
